A study of Mus musculus with 22 samples.

Results

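IGHV1-72 was the heavy-chain variable gene of 161 of 2015 germinal center B cells with a productive heavy chain in the single-cell library of ovalbumin (OVA) immunized mice. A cell was counted when its productive heavy-chain contig with the most unique molecular identifiers (UMIs) was called IGHV1-72. They are 161 of 5503 such cells in the series, whose NP libraries held 1107 (NP 1) and 966 (NP 2) IGHV1-72 cells. The other 1854 heavy-chain cells of the OVA library, called other-V cells here, served as the reference within that library.

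All libraries came from spleens of male C57BL/6 mice, 8 weeks old per the sample labels, that were immunized into the peritoneum with 100 μg of antigen in 50% alum and 1 μg of lipopolysaccharide. NP 1 and NP 2 followed NP-KLH, a hapten coupled to a carrier protein, and held live B220+ Fas-high GL-7-high cells that also bound NP, sorted on day 13. OVA 1 followed OVA and held all live B220+ Fas-high GL-7-high cells with no antigen in the gate, so its cells need not bind OVA. No label gives the day of that sort. Besides these droplet libraries, 16 bulk heavy-chain libraries of OVA-binding germinal center B cells were made, 4 for each of the letters n and p on each of days 7 and 13. The labels do not say what the letters mean, how many animals were pooled, or that libraries came from separate animals. With 1 OVA library there is no replicate spread for its cells. Values in OVA 1 therefore carry counting intervals (exact Clopper-Pearson, 95%, for shares), which cover counting error only, and antigen, gate and possibly day cannot be told apart between OVA 1 and the NP libraries.

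A B cell receptor pairs a heavy chain with a kappa or lambda light chain. The third complementarity-determining region (CDR3) of the heavy chain is built where V, D and J segments join, so its letters mark cells descended from a common founder. In mice of this background IGHV1-72, also called V186.2, joined to a lambda 1 light chain is the classical receptor against NP, in which a tyrosine-rich CDR3 is typical. Germinal center B cells add point mutations to these genes in the dark zone, are selected in the light zone, and can switch from IgM to IgG.

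The IGHV1-72 segment is on chromosome 12 at 115757984 to 115758277 in RefSeq's table for GRCm38.p6, the assembly behind mm10. Cells identical in V gene, J gene and all CDR3 nucleotides were grouped as a clone. Single linkage then joined clones of equal V gene, J gene and CDR3 length into lineages where their CDR3 differed at no more than 10% of bases, named L1 to L17 by size. The CDR3 sequences of the 5 largest lineages are shown because 133 of the 161 cells (82.6%) belonged to them. The most frequent CDR3 of each NP library's IGHV1-72 cells follows for contrast. Each runs from the codon of the conserved cysteine to that of the conserved tryptophan, and capitals mark the fourth codon.

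L1, 42 of 74 cells, IGHJ2: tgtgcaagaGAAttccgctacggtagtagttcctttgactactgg
L2, 6 of 23 cells, IGHJ1: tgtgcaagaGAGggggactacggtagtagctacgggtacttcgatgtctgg
L3, 6 of 18 cells, IGHJ4: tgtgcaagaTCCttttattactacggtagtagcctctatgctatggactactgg
L4, 7 of 12 cells, IGHJ1: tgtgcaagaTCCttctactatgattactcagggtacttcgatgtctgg
L5, 6 of 6 cells, IGHJ1: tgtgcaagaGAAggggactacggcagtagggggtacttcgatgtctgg
NP 1, 25 cells, IGHJ2: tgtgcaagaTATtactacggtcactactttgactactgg
NP 2, 31 cells, IGHJ1: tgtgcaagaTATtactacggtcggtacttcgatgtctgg

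The fourth codon reads glutamate in L1, L2 and L5, serine in L3 and L4, and tyrosine in both NP sequences. Over all IGHV1-72 cells, glutamate was the fourth residue in 105 of 161 OVA cells (65.2%, 57.3 to 72.5), in 0 of 1107 NP 1 cells, which by a floor of 3 counts allows a share of up to 0.271%, and in 1 of 966 NP 2 cells (0.104%). Tyrosine stood there in 73.2% of NP 1 cells, in 73.2% of NP 2 cells and in 1 OVA cell (0.621%, 0.0157 to 3.41). Neither interval of the OVA cells overlapped those of the NP cells. Other-V cells of OVA 1 had glutamate in 13.1% (11.6 to 14.7) and tyrosine in 5.34%, so the glutamate share was above its level in the same library as well. The single OVA cell with tyrosine was L16, a cell with IGHJ3 and the light chain IGKV1-122.

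**Figure D1:**
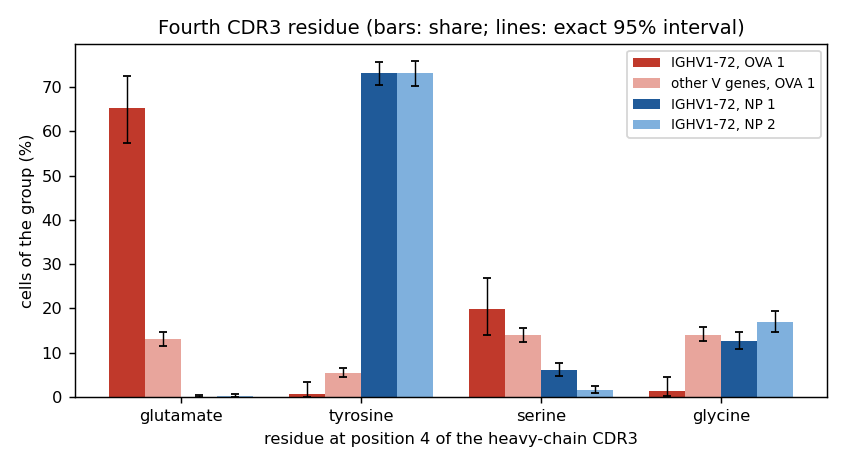
Share of cells (y axis, percent) with glutamate, tyrosine, serine or glycine at position 4 of the heavy-chain CDR3 (x axis), for IGHV1-72 cells of OVA 1, NP 1 and NP 2 and for other-V cells of OVA 1, with exact 95% intervals as lines. Glutamate led in OVA 1 at 65.2% and tyrosine in both NP libraries at 73.2%.

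That glutamate share rested on few founders. L1 alone supplied 72 of the 105 glutamate cells, and 33 of the 87 cells outside L1 had it (37.9%). Counted once per lineage, 4 of 17 lineages (23.5%) showed glutamate in their cell with most heavy-chain UMIs. The contrast with NP in tyrosine did not need L1, since all but 1 of the cells outside L1 lacked it too. Further residues also differed: the fifth residue was phenylalanine in 110 cells (68.3%), where NP 1 and NP 2 most often had tyrosine (48.4% and 52.7%). The seventh was tyrosine in 141 cells (87.6%), against 23.5% and 19.6% in NP 1 and NP 2, where glycine led with 51.9% and 57.2%.

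CDR3 loops of the OVA cells were longer. Their median length was 15 residues (range 9 to 18), against 13 in NP 1, 14 in NP 2 and 14 in other-V cells of OVA 1. Lengths of 15 or more made up 91.9% (86.6 to 95.6) of the OVA cells, 299 of the 1107 cells (24.4% to 29.7%) of NP 1, 25.8% (23.0 to 28.7) of NP 2 and 38.3% (36.1 to 40.6) of other-V cells. Only 4 OVA cells (2.48%) were at 13 or below, all of them the 4 cells of L8 with 9 residues, whereas 50.4% and 44.6% of NP 1 and NP 2 cells were. The share of long loops was 85.1% without L1 and 70.6% when each lineage counted once. NP lineages were not counted in that way.

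**Figure D2:**
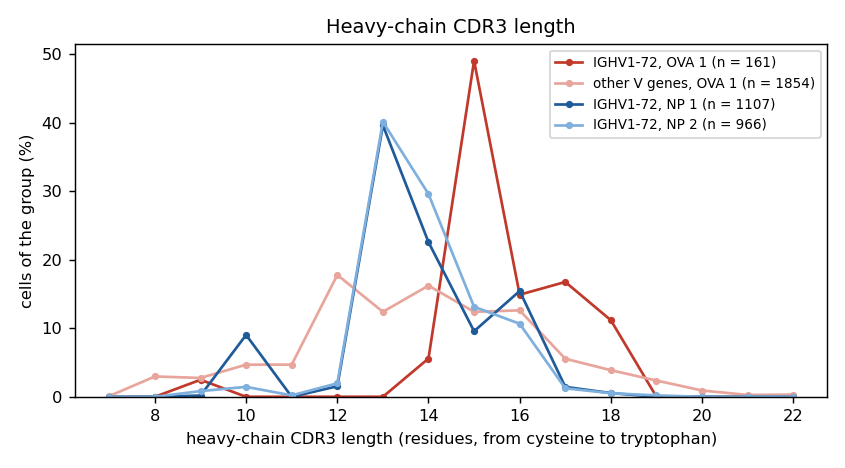
Length of the heavy-chain CDR3 in residues (x axis) against the share of cells (y axis, percent) in 4 groups of cells. IGHV1-72 cells of OVA 1 peaked at 15 residues with 49.1% of cells, and those of NP 1 and NP 2 at 13.

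J gene use differed as well. IGHJ2 was used by 79 OVA cells (49.1%, 41.1 to 57.1), below NP 1 (74.5%) and NP 2 (69.7%) and above other-V cells (30.4%). Of these 79 cells 74 were L1, and outside L1 IGHJ2 was joined in 5 of 87 cells (5.75%), where IGHJ1 was most frequent. IGHJ1 was joined in 44 cells (27.3%), against 10.5% and 14.8% in NP, IGHJ4 in 24 (14.9%) and IGHJ3 in 14 (8.70%). The run TACGGTAGTA, bases 19 to 28 of the L1 sequence, is present in 1646 of 2826 germline alignments to the D gene IGHD1-1 in the bulk table. It was searched on the coding strand of the CDR3, and 95 of 161 OVA cells held it (51.0% to 66.7%). It occurred in 23.0% and 25.8% of NP 1 and NP 2 cells and in 8.85% of other-V cells. The run was taken from the most frequent OVA sequence, so its presence in L1 was fixed by that choice. The D gene call of the contigs ordered OVA and NP cells otherwise. IGHD1-1 was called in 17 OVA cells (10.6%), 18.4% of NP 1 cells, 15.4% of NP 2 cells and 4.48% of other-V cells. The run is legible in the sequences of L1, L2 and L3 above and absent from L4 and L5. Without L1 the share was 43.7% and, once per lineage, 5 of 17.

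Light chains separated the OVA cells from the NP cells. Of 158 OVA cells with a light chain 156 were kappa (98.7%, 95.5 to 99.8), while lambda made up 96.0% of 1067 NP 1 cells and 96.4% of 950 NP 2 cells. The 2 lambda cells were both of L10, used the lambda gene IGLV1 and IgG1, and had a CDR3 of 17 residues with glycine as the fourth. Other-V cells of OVA 1 were 96.2% kappa, close to the IGHV1-72 cells beside them.

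A few kappa genes led among the partners. In all, the OVA cells used 15 light-chain V genes, IGLV1 among them, beside 18 in NP 1 and 16 in NP 2. IGKV8-27 paired with 70 cells (44.3%, 36.4 to 52.4), IGKV14-111 with 22 (13.9%), IGKV16-104 with 21 (13.3%), IGKV10-96 with 18 (11.4%) and IGKV5-43 with 6 (3.80%). IGKV8-27 was used by 5 of 1797 other-V cells (0.278%) and by none of the NP cells, and all 70 member cells with it were in L1. IGKV14-111 differed from it in being frequent in other-V cells too, at 342 of 1797. Each of IGKV8-27, IGKV14-111, IGKV16-104, IGKV10-96 and IGKV5-43 was found in at most 2 IGHV1-72 cells of either NP library.

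The light chain was not used to define lineages, yet each lineage kept nearly one partner. In the 9 lineages of at least 3 cells, 143 of 147 cells with a light chain (97.3%) carried their lineage's leading light-chain V gene. In L1 it was IGKV8-27 in 70 of 72 cells, in L2 IGKV16-104 in 21 of 22, in L3 IGKV14-111 in 18 of 18 and in L4 IGKV10-96 in 12 of 12. L5 had IGKV5-43 in 6 of 6 cells, L6 IGKV10-96 in 6 of 6, L7 IGKV4-63 in 4 of 4, L8 IGKV14-111 in 3 of 4 and L9 IGKV4-59 in 3 of 3. IGKV10-96 was thus the partner of lineages that differ in J gene, L4 with IGHJ1 and L6 with IGHJ3, and IGKV14-111 that of L3 with IGHJ4 and L8 with IGHJ3.

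The 161 cells formed 84 clones, of which 15 had at least 2 cells, and 17 lineages, of which 12 had. L1 held 74 cells (46.0%, 38.1 to 54.0), L2 23, L3 18, L4 12, L5 and L6 6 each, L7 and L8 4 each and L9 3. L1 was the largest of all 659 lineages in OVA 1, ahead of one with 67 cells and another V gene. In NP 1 and NP 2 the largest IGHV1-72 lineage held 13.6% and 21.4% of cells, and 139 and 143 lineages were present.

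Clones of at least 3 cells numbered 9. The largest was the L1 sequence printed above, with 42 cells that were all IgG2b. L1 had another 2 clones of 3 cells each, both IgG2b with IGKV8-27. One of them carried T34C, a phenylalanine to leucine change at codon 12, and the other A25T and G26T, together a serine to phenylalanine change at codon 9. Positions are counted from the first base of the cysteine codon, with the base of the most frequent CDR3 of the lineage first. The printed sequences of L2, L3, L4 and L5 were clones of 6, 6, 7 and 6 cells, and the remaining clones were 4 cells of L6 and 3 cells of L8.

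Isotypes followed the lineages. IgG2b was the constant region of 74 OVA cells (46.0%, 38.1 to 54.0), IgM of 71 (44.1%), IgG1 of 11 (6.83%), IgG2c of 3 and IgG3 of 2. In NP 1 and NP 2, 11.1% and 14.7% of the IGHV1-72 cells were IgG2b, and 16.6% of other-V cells were. The switched share as a whole, 55.9% (47.9 to 63.7), was near that of NP 1 (58.1%) and NP 2 (59.2%), and their intervals overlapped. L1 had 73 IgG2b cells, 1 IgG2c cell and no IgM cell, and supplied 73 of the 381 IgG2b cells of OVA 1 (19.2%). Outside L1, 71 of 87 cells (81.6%) were IgM and 1 was IgG2b.

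**Figure D3:**
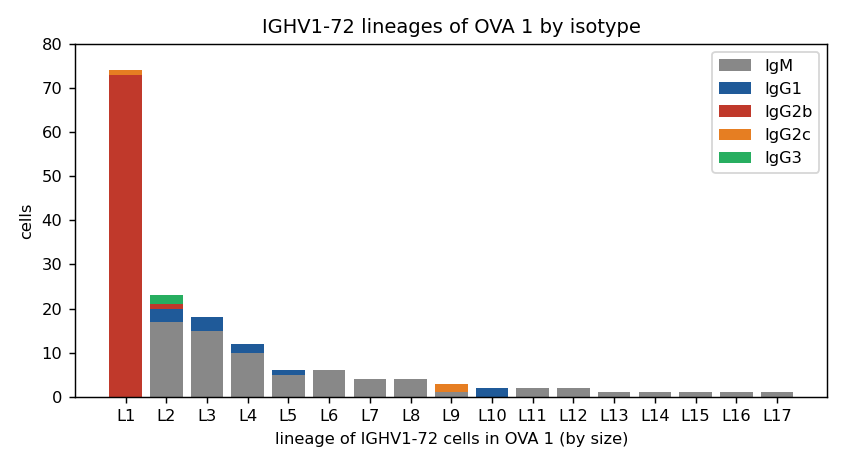
Cells (y axis) in each of the 17 IGHV1-72 lineages of OVA 1 (x axis, by size), stacked by the isotype of the heavy-chain contig. L1 was IgG2b in 73 of 74 cells, and most smaller lineages were IgM.

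Several lineages held more than one isotype. L2 had 17 IgM, 3 IgG1, 2 IgG3 and 1 IgG2b cells, L3 had 15 IgM and 3 IgG1, L4 10 IgM and 2 IgG1, L5 5 IgM and 1 IgG1, and L9 1 IgM and 2 IgG2c. L6, L7 and L8 were IgM in all of their cells. In the gene table, made from separate libraries of the same cells, L1 cells had 558 UMIs of Ighg2b, 17 of Ighm and 0 of Ighd, while the members outside L1 had 896 of Ighm and 5 of Ighg2b. Ighv1-72 itself gave 1184 UMIs in the IGHV1-72 cells and 28 in the 1720 other-V cells, and 4330 of the 4331 UMIs of Igkv8-27 in member cells were in L1.

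One reading of L1 stood apart. Of its IgG2b cells 58 of 70 (82.9%) also had UMIs of Ighg2c, 131 in all beside 554 of Ighg2b, whereas 29 of 285 other IgG2b cells of the library had any (10.2%). Ighg2c made up 19.1% of the UMIs of both genes in L1 IgG2b cells, 2.86% in other IgG2b cells and 77.9% in other-V cells called IgG2c. Ighg2b and Ighg2c are close paralogs whose reads can be misassigned, and the part of that in this result was not tested.

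Within lineages the CDR3 varied. Lineages of at least 3 cells held 65 variant CDR3 besides the most frequent ones, 44 with 1 change, 12 with 2 and 9 with 3 or 4. They carried 75 distinct substitutions, 58 of them in a codon that, as found in the variant, coded another residue and 17 in one that coded the same. Of the 75, 53.3% were transitions and 50.7% fell on G or C. L1 had 30 of them, L2 17 and L3 17, and L5 none in its 6 cells. Base 29, the G of the serine codon at position 10, lies just after that D run in L1 and L2. It was changed in 4 of 26 variant sequences of L1, 6 of 16 of L2 and 1 of 12 of L3. G29A, a change to asparagine, occurred in 4 L2 sequences, and G29C, a change to threonine, in 3 L1 sequences. The fourth codon of L1 was hit by 3 substitutions, one of them the silent A12G in 2 sequences. Sequencing and PCR errors can add such changes, and their part was not tested.

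No rearrangement and no combination of J gene and CDR3 residues was shared with an NP library. Joined with NP 2 by the lineage rule, 1 OVA cell and 1 NP cell fell together, and with NP 1 none did. The bulk OVA-binding libraries had IGHV1-72 in 142 of 8520 sequences, in all 16 libraries, at 0.412% to 4.37% with a median of 1.67%. None of the 84 member CDR3 appeared in any of the bulk libraries. That search was for exact runs of bases, so related CDR3 with changed bases would be missed. Of 133 bulk IGHV1-72 sequences with a CDR3, 23 (17.3%) had glutamate and 16 tyrosine at position 4, and the median length was 14 residues.

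Gene expression was read in cells that had 500 or more genes detected and no more than 10% of UMIs from mitochondrial genes. Of the IGHV1-72 cells 151 passed, 71 of L1, 21 of L2, 18 of L3 and 10 of L4, beside 1720 other-V cells. Depth was similar, with medians of 8023 and 8252 UMIs per cell and 3.18% and 2.90% mitochondrial UMIs, but lineages ranged from 5835 UMIs in L2 to 9505 in L3. Libraries shared 5 heavy-chain barcodes with NP 1 and 5 with NP 2, none of them a member. UMIs were summed over cells and scaled to the total of non-immunoglobulin UMIs as CPM, and genes were considered where their pooled level would give at least 30 UMIs in the smaller group.

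As germinal center B cells the members met their label. The 14 germinal center markers, among them Bcl6, Fas and S1pr2, summed to 3090 CPM in IGHV1-72 cells and 3204 in other-V cells, and all 14 were detected. T cell markers were at 77.0 and 82.0 CPM, 12 of 14 with no UMI in the members, and their UMIs came from Lck in all but 1 case. NK cell markers had 1 UMI.

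Most genes were alike. Of 5071 genes considered, 30 were at least 1.5-fold higher (0.592%) and 67 at least 1.5-fold lower (1.32%) in IGHV1-72 cells, 1.91% in all, and the median log2 ratio was -0.01. No test is possible with 1 library. For 94 of the 97 the counting interval excluded a ratio of 1. The fold and the UMI minimum that picked these genes make that likely beforehand, so it adds little. L1 made up 71 of the 151 cells. Without it 46 of the 97 passed the fold the same way, while 96 stayed on the same side of 1.

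The highest ratio belonged to Sox5, a transcription factor known from atypical memory B cells. It was at 53.7 CPM in IGHV1-72 cells and 24.9 in other-V cells, a log2 ratio of 1.11 (0.72 to 1.48), and 0.66 without L1. UMIs of Sox5 were seen in 35.1% of member cells and 18.1% of other-V cells, with no more than 3 in any member. In NP 1 and NP 2 the log2 ratios of IGHV1-72 cells to other-V cells for Sox5 were -0.15 and -0.25.

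Cxcr3, the receptor for interferon-induced chemokines, was at 54.5 against 27.6 CPM, a log2 ratio of 0.98 (0.59 to 1.35). Its excess lay in the lineages L1 with 75.6 CPM and L2 with 75.8, and L3 and L4 had none. Among IgM or IgD cells alone the Cxcr3 ratio turned to -0.090, and among switched cells it was 1.31. Against the 285 other IgG2b cells of OVA 1, L1 had 75.6 against 37.8 CPM, so its Cxcr3 level was above that of other-V cells of its own isotype.

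Further genes were higher with and without L1. Ly75, the endocytic receptor DEC-205 that germinal center B cells use to take up targeted antigen in experiments, had a log2 ratio of 0.86 (0.42 to 1.28) and 0.96 without L1. Egr1, an immediate early gene induced by receptor signals and also by cell handling, had 0.81 (0.46 to 1.14) and 0.92. By lineage Egr1 was at 60.8 CPM in L1, 135 in L2, 11.2 in L3 and 26.1 in L4, against 37.3 in other-V cells. A single L1 cell gave 14 of its 84 UMIs. Shisa8 had 0.90 and 0.85 without L1, the sialyltransferase gene St3gal1 0.79 and 0.75, and Fanca, of the Fanconi anemia repair pathway, 0.79 and 0.74. Ankhd1 had 0.70 and 0.86, and Brip1, a helicase of DNA repair, 0.67 and 0.86.

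Others leaned on L1 or on single cells. Sidt2, a lysosomal membrane protein, had 0.77 and 0.42 without L1, and Polm, the DNA polymerase mu of end joining, 0.68 and 0.54. With each clone weighted equally, Polm was at 0.26 and St3gal1 at 0.21, both short of the fold. The linker histone gene Hist1h1d had 0.93 and 0.40 without L1, and 1 L4 cell gave 23 of its 94 UMIs. In the NP libraries the log2 ratios of these 12 genes lay between -0.33 for Ly75 in NP 1 and 0.48 for Hist1h1d in NP 2.

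Plac8 had the lowest ratio. It was at 5.45 CPM against 42.1, a log2 ratio of -2.95 (-4.27 to -1.90), and its 7 UMIs came from 2 cells, 6 of them from 1 L1 cell. NP 1 and NP 2 gave -4.05 and -2.08 for Plac8 in the same contrast, so it was low in IGHV1-72 cells of every library. Among switched cells of OVA 1 alone the ratio was 0.18, where all 6 member UMIs came from that L1 cell. That cell was also the one with high myeloid markers described below. Among IgM or IgD cells the ratio was -5.24.

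Klf2, a factor of quiescent and recirculating B cells, was also low in every library. Its log2 ratio was -1.13 (-1.85 to -0.49) in OVA 1, -0.98 in NP 1 and -1.18 in NP 2. Without L1 the OVA 1 value was -0.29, short of the fold. Of its 20 member UMIs 9 came from 1 cell of L12. In L1 Klf2 had 4.45 CPM, in other IgG2b cells 9.64 and in other-V cells 34.0. The log2 ratio of L1 to other IgG2b cells was -1.12 (-3.48 to 0.59), an interval that spans no change. Klf2 was below the UMI minimum of that comparison.

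The log2 ratios of the other 10 low genes in NP 1 and NP 2 lay between -0.53 for Slpi and 0.26 for Krt222. The log2 ratio of St3gal6, a sialyltransferase, was -1.54 (-2.50 to -0.72) in OVA 1, and that of Slpi, a secreted protease inhibitor, -1.38 (-1.81 to -0.98), and without L1 they were -1.24 and -1.76. Polh, the translesion polymerase eta that makes mutations at A and T bases in this setting, had -1.08 (-1.80 to -0.44) and -1.01 without L1. Prmt5, an arginine methyltransferase needed by germinal center B cells, had -0.90 and -1.77 without L1. Ifi27l2a, an interferon-induced gene, had -1.16 (-1.38 to -0.96), with 88.9 CPM in L1, 228 in members outside L1 and 347 in other-V cells.

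Vpreb3 and Gcsam are B lineage genes active in germinal centers. Vpreb3 was at 97.8 CPM in L1 and 224 in members outside it, against 311 in other-V cells, a log2 ratio of -0.98 (-1.19 to -0.78) over all members. Gcsam was at 48.9 and 78.6 CPM in L1 and the rest, against 119, with -0.91 (-1.25 to -0.59) over all. With each clone weighted equally the Gcsam ratio was -0.145. Fah, an enzyme of tyrosine breakdown, had -0.98 over all members and -0.21 without L1, Krt222 -0.87 and -0.49, and Bmyc -0.86 and -0.26. All 3 were nearer to 0 without L1, and with equal clones Fah and Krt222 were at -0.44 and -0.47, short of the fold.

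**Figure D4:**
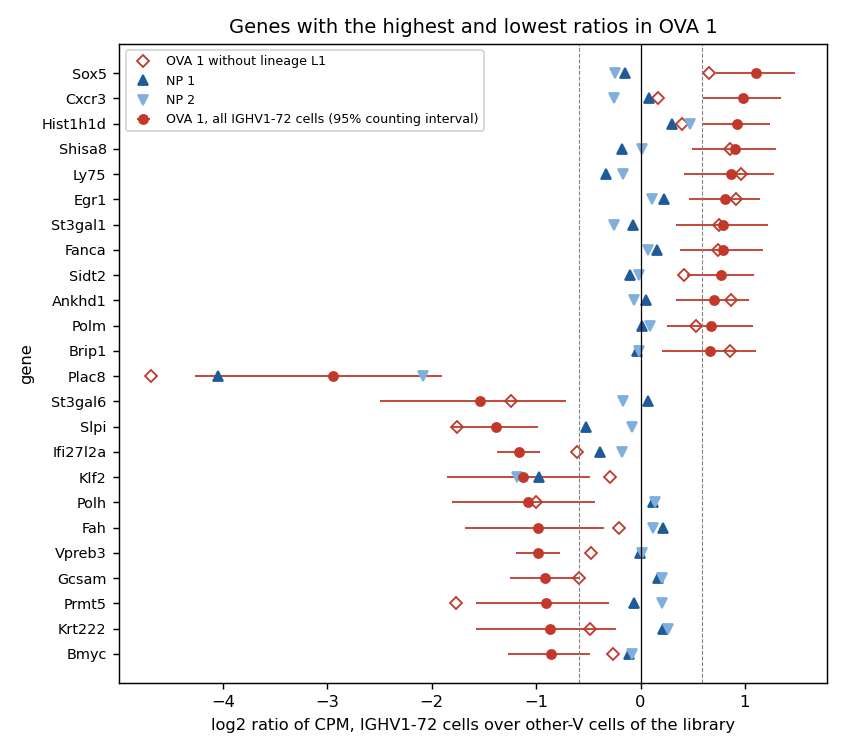
Log2 ratio of CPM in IGHV1-72 cells over other-V cells of the same library (x axis) for the 12 highest and 12 lowest genes of OVA 1 (y axis). Filled red points with 95% counting intervals are OVA 1, open diamonds OVA 1 without L1 and triangles NP 1 and NP 2, and dashed lines mark the 1.5-fold limit. Plac8 and Klf2 were low in all 3 libraries.

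Since every L1 cell was switched, L1 was also set against the 285 other IgG2b cells. Of 3251 genes considered, 29 were higher and 97 lower by at least 1.5-fold, 3.88% in all. Sidt2 had a log2 ratio of 0.88 there. Below the UMI minimum of this comparison, Sox5 had 1.32 (0.75 to 1.88), Egr1 0.86 (0.29 to 1.41) and Fah -2.52. Among the considered genes Bmyc had -1.62 (-2.45 to -0.88), Slpi -1.44, Vpreb3 -1.39 (-1.77 to -1.02), Gcsam -1.28 and Ifi27l2a -1.17. Cd72, an inhibitory coreceptor, gave 54 UMIs in L1 and 447 in other IgG2b cells, a log2 ratio of -1.05 (-1.49 to -0.64); in L2 it was at 354 CPM. These values were measured within 1 isotype, except that 1 of the 71 L1 cells was IgG2c. Cd86, the costimulatory ligand of the light zone, was at 194 CPM in L1 and 131 in other IgG2b cells.

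The gene lists differed little as a whole. For the lists of B cell states and pathways, median log2 ratios lay between -0.29 for the dark zone and 0.10 for the light zone, antigen presentation and mitochondrially encoded OXPHOS, beside -0.01 over all genes considered. The germinal center list had a median of 0.04, with Gcsam as the 1 low gene of 14. The 13 light zone genes summed to 5477 CPM in members and 4892 in other-V cells, a log2 ratio of 0.16 (0.13 to 0.20), with 0 of 11 considered genes past the fold and a median of 0.10. The 15 dark zone genes had 1710 and 2011 CPM, -0.23 (-0.30 to -0.17), with Polh, Gcsam and Aurka, a mitotic kinase, among 3 of 14 genes past the fold and a median of -0.29. When each clone had the same weight Aurka turned to 0.39, and Gcsam was at -0.145. Without L1 the dark zone sum was at -0.11. By lineage it was at -0.36 in L1, -0.80 in L2, 0.04 in L3 and 0.20 in L4. In the NP libraries the light zone sums had log2 ratios of -0.10 and -0.13 and the dark zone sums 0.07 and 0.09. These were on the opposite sides from all OVA 1 members pooled, but on the same sides as L3 and L4.

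The log2 ratio of summed CPM is given for each list here. G2 and M phase genes had -0.18 (-0.21 to -0.14) over all members and -0.03 without L1, with 2 of 36 past the fold (Aurka, and the cyclin gene Ccna2 at -0.66), and S phase genes -0.11, with Brip1 as the 1 higher gene of 38. MYC targets had -0.15 and nuclear-encoded OXPHOS genes, the respiratory chain, -0.09, with 0 of 32 and 0 of 66 past the fold. Mitochondrially encoded OXPHOS genes had 0.09 (0 of 13), glycolysis -0.01 (0 of 11), antigen presentation 0.11 (0 of 17), B cell receptor signaling 0.07 (0 of 24) and apoptosis 0.03 (0 of 9). Plasma cell genes had -0.12 (0 of 9), interferon response genes -0.20 and without L1 -0.04, where Irf7 was 1 of 9 past the fold at -0.72 and at -0.11 without L1, and hypermutation and switching genes 0.02, where Polh was 1 of 13. Memory and naive B cell genes were even at 0.01, with Klf2 as the 1 low gene of 9. The receptor, CD40 and NF-kB response was even at 0.04, with Egr1 higher and Batf, a factor of switching, lower at -0.73 among 22. Marginal zone and B-1 genes had 0.01 (0 of 4) and dissociation response genes, markers of cell handling, -0.05, with Egr1 as 1 of 10. Of the lists named, those with any gene past the fold had 1 to 3 of them, and in lists this small a single gene already exceeds the 1.91% of all genes.

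In lists with no gene past the fold the extremes were small. Il4i1 and Cd86 bounded the light zone list at -0.13 and 0.50, Slamf7 and Derl3 the plasma cell list at -0.50 and 0.29, and Cd72 and Cr2, the complement receptor, the receptor signaling list at -0.41 and 0.40. Nop58 and Ppan bounded MYC targets at -0.43 and 0.43, Ndufa9 and Sdhc nuclear OXPHOS at -0.56 and 0.26, and Pgam1 and Pfkl glycolysis at -0.21 and 0.37. Antigen presentation ran from -0.06 for H2-DMb2 to 0.50 for Cd86, apoptosis from -0.15 for Mcl1 to 0.26 for Bad, mitochondrial OXPHOS from -0.08 for mt-Nd6 to 0.16 for mt-Nd1, and the marginal zone list from -0.08 for Mzb1 to 0.40 for Cr2. Cd72 was at 0.25 in the members outside L1. Of the upper extremes, Cd86 and Ppan were at 0.10 in those members and Pfkl at -0.25. Derl3 was at 0.68 there, Sdhc at 0.36, Cr2 at 0.31, Bad at 0.30 and mt-Nd1 at 0.15.

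Lineages of the members differed in these lists. L2 had 7186 CPM (6712 to 7685) of light zone genes and 50367 of antigen presentation genes, with 1483 (1272 to 1719) of S phase and 2704 (2416 to 3017) of G2 and M phase genes. Other-V cells had 4892, 35808, 4798 and 5314 in the same order. Per cell, the L2 median was 1050 CPM of S phase genes against 1891 in other-V cells, and its upper quartile 1384 against 6127. L3 and L4 were on the other side, with 6081 and 5504 CPM of S phase genes and 4197 and 3639 of light zone genes. L1 lay between, with 5660 of light zone, 4245 of G2 and M phase and 4592 of S phase genes. L2 was also the shallowest of these 4 lineages, and the part of depth in these values was not tested.

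**Figure D5:**
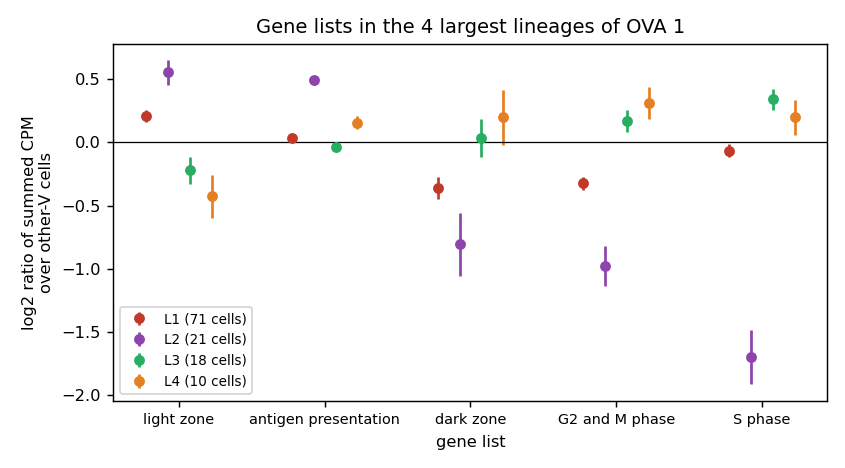
Log2 ratio of summed CPM over other-V cells of OVA 1 (y axis) for 5 gene lists (x axis) in the 4 largest lineages, with 95% Poisson intervals that cover counting error only. L2 was highest for light zone genes and lowest for S phase genes, with L3 and L4 on the other side of 0 for both.

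Markers of other cell types were also summed. Myeloid markers summed to 124 CPM in members and 37.0 in other-V cells, but 121 of their 160 UMIs came from a single L1 cell, which had 68 UMIs of Lyz2, 23 of Fcer1g and 12207 UMIs in all, with 1 heavy chain. No other member had more than 2, and without that cell the level was 30.6 CPM. Of the 15 myeloid markers 5 had no UMI in the members. The gene table held 9 of the 10 NK cell markers, 8 of them with no UMI, and 6 of the 9 erythroid markers, 4 with none. Erythroid markers summed to 87.1 CPM in members and 63.0 in other-V cells, with 50.4 in L1, 128 in members outside L1 and 248 in L4. Without the L1 cell of high myeloid markers, 30 genes were higher and 64 lower by the fold, and of the 24 named genes 1 moved (Plac8, to a lower ratio) and 23 stayed within their counting intervals. The part of erythroid RNA in other results was not tested.

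The IGHV1-72 contrast of OVA 1 was compared with that of the NP libraries by edgeR's quasi-likelihood test. It used 6 sums, IGHV1-72 and other-V cells of each library, with library as a block. Antigen, gate and possibly day differ between OVA 1 and the NP libraries, so a difference cannot be assigned to the immunization. Of 10818 genes 111 passed an adjusted p of 0.05 (1.03%), 45 higher (0.416%) and 66 lower (0.61%) in OVA 1, and 907 had an unadjusted p under 0.05. The only spread in this test is that between NP 1 and NP 2, with 1 residual degree of freedom, and it holds none between OVA libraries or between founder lineages. The median prior degrees of freedom were infinite and the common dispersion was 0.000607, so variance was shared across genes. The p-values and SE given below therefore do not measure each gene's own spread between replicates. DESeq2 called 15 genes, edgeR without the block none (161 at an unadjusted p under 0.05), and edgeR without L1 59.

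The 10 genes with the smallest p-values follow. Hist1h2ap and H2afx, both histone genes, differed by -1.03 ± 0.11 and -0.71 ± 0.10 (log2, OVA minus NP, ± SE), H2afz, a histone variant, by -0.50 ± 0.06 and Stmn1, a tubulin regulator, by -0.57 ± 0.08. All 4 were lower in IGHV1-72 than in other-V cells of OVA 1 and higher in both NP libraries. For Hist1h2ap the log2 ratios were -0.74, 0.18 and 0.53 in OVA 1, NP 1 and NP 2, with an adjusted p of 3.64e-17 in edgeR. Lars2, a mitochondrial tRNA ligase, differed by 0.62 ± 0.07, with 1 L1 cell giving 284 of its 1261 UMIs. Vpreb3 differed by -0.99 ± 0.12 (edgeR adjusted p = 9.72e-13) and Ifi27l2a by -0.89 ± 0.13, and both lost the call without L1, at adjusted p of 0.0579 and 0.373.

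The smallest p-value was that of Gm30211, a long noncoding RNA annotated on chromosome 6 from 70729213 to 70751690, beside the kappa constant gene at 70726435 to 70726754. Its difference was 2.42 ± 0.11 (edgeR adjusted p = 3.23e-104). Its log2 ratio was 0.66 in OVA 1, where 98.7% of members and 96.2% of other-V cells were kappa, and -1.88 and -1.63 in NP 1 and NP 2, where IGHV1-72 cells were 4.03% and 3.58% kappa. The part of light-chain use in this difference was not tested. Lyz2 (9.50 ± 0.57) and Fcer1g (5.64 ± 0.72) completed the 10. Without the L1 cell that held nearly all their member UMIs they no longer passed, at 3.39 and -4.39 with adjusted p of 0.763 and 0.900 in edgeR, and 99 genes were called.

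Among the 24 genes named from OVA 1, 13 also passed this test, beside 111 of all 10818 genes tested (1.03%). Sox5 differed by 1.30 ± 0.26 (edgeR adjusted p = 2.22e-04), Ly75 by 1.13 ± 0.27, Cxcr3 by 1.12 ± 0.28, Gcsam by -1.09 ± 0.17, Slpi by -1.07 ± 0.22 and Polh by -1.21 ± 0.33. Plac8 (-0.15 ± 0.63) and Klf2 (-0.03 ± 0.37) showed no difference that the test could detect. All 24 were chosen from the OVA contrast that enters this test, so the count is a description.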

How the data were processed

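Droplet libraries of germinal center B cells gave a gene table of UMI counts and one table of receptor contigs per library, as deposited by the authors. Cell Ranger and mm10 are named, per the submitters' processing notes, with no version or cell filter. The deposited bulk table gives one heavy-chain sequence per line with V identity in percent; its tool was not stated.

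Heavy chains were taken from the productive contig with most UMIs, with ties broken by reads. From the 14407 genes, 225 immunoglobulin genes were left out before scaling to CPM. The text names the 12 highest and 12 lowest ratios that kept their side without the largest clone and with each clone weighted equally. It also names list members past the 1.5-fold limit (where none passed, the extremes), the 10 genes of smallest p in edgeR, and clones of at least 3 cells. Members and lists were chosen with earlier results of these data known. Doublets were not called; an alternative kept only cells of exactly 1 productive heavy chain.

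The difference between OVA 1 and the NP libraries used edgeR 4.0.16 (quasi-likelihood, Benjamini-Hochberg adjustment) in R 4.3.3, with DESeq2 1.42.0 as an alternative. On simulated counts for 10818 genes it recovered 93% of 4-fold and 66% of 2-fold changes with 7 false calls. The changes were placed only in genes of higher summed counts. All counts were drawn with a shared dispersion, without lineages or single cells of high counts. The figures therefore do not cover genes of few UMIs or calls that rest on such cells. Other steps used Python 3.11.15, numpy 2.4.6, pandas 2.3.3, scipy 1.17.1 and matplotlib 3.10.9. Alternatives covered the unit counted, the reference cells, filters, scaling, UMI minimum, isotype and single NP libraries.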

Additional observations from a re-analysis of the deposited data

Results flagged for a closer look

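For 10 genes the log2 ratio of IGHV1-72 to other-V cells differed between OVA 1 and the NP libraries by edgeR's quasi-likelihood test of that difference. The differences (OVA 1 minus NP) were 2.42 for Gm30211, 9.50 for Lyz2, 5.64 for Fcer1g and 0.62 for Lars2. They were -1.03 for Hist1h2ap, -0.99 for Vpreb3, -0.89 for Ifi27l2a, -0.71 for H2afx, -0.57 for Stmn1 and -0.50 for H2afz. Lyz2 and Fcer1g rested on 1 cell of L1.

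Among the bulk OVA-binding libraries, the first replicate of letter n at day 13 had IGHV1-72 in 4.37% of its sequences, far from the other 3 of its group by Dixon's criterion (gap of 0.847 of the range, critical value 0.829). Of 4 groups checked this was the one marked, and chance marks about 1 group in 20.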

How the results depend on the processing

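Receptor shares of the OVA cells depended on what was counted. With each clone counted once, glutamate 4 was 54.8%, the D run 45.2%, IGHJ2 36.9%, IGKV8-27 31.3%, IgG2b 31.0%, IgM 54.8% and switched 45.2%. With each lineage counted once (added after seeing the data, as were the settings without L1 or the myeloid-marker cell), glutamate 4 was 23.5%, tyrosine 4 5.88%, lengths of 15 or more 70.6%, the D run 29.4%, IGHJ2 23.5%, kappa 94.1%, IGKV8-27 5.88%, IgG2b 5.88%, IgM 82.4% and switched 17.6%. Without L1 they were 37.9% for glutamate, 85.1% for length, 43.7% for the D run, 5.75% for IGHJ2, 0% for IGKV8-27, 1.15% for IgG2b, 81.6% for IgM and 18.4% for switched. By lineage the 84 clones became 17 and the largest held 74 cells. Leaving out either NP library kept all 10 differences of shares on their side.

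Genes at least 1.5-fold higher numbered 16 without the largest clone, 11 without L1, 138 with clones weighted equally, 18 in IgM or IgD cells, 179 at a minimum of 10 UMIs and 3 at 100. Lower genes numbered 190 with equal clones, 323 at 10 UMIs and 11 at 100. Signs turned for Cxcr3 in IgM or IgD cells (-0.090), Plac8 in switched cells (0.18) and Aurka with equal clones (0.39). All member UMIs of Plac8 in switched cells came from 1 L1 cell, the one with high myeloid markers. The edgeR count of 111 was 0 with no replicate block (the library block pairs both sums of a library), 59 without L1 and 15 by DESeq2. Lyz2 turned to -2.13 without L1, and Fcer1g to -4.37 without L1 and -4.39 without the myeloid-marker cell. Without either NP library no residual degrees of freedom remained, so no count could be given. The causes were not tested. With 1 OVA library and 151 cells, genes of few UMIs limit every ratio.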
